A study of Homo sapiens with 16 samples.

Results

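MOLM-13 cells given an EZH2 inhibitor and a PRMT5 inhibitor together were compared with MOLM-13 cells given only the solvent, dimethyl sulfoxide (DMSO), over every gene that could be tested. The members are the 4 libraries of the combined treatment and the 4 DMSO libraries, 8 of the 16 libraries in the study. They were taken by their treatment labels, with earlier results of these data known. MOLM-13 is a human acute myeloid leukaemia line with a fusion of the MLL gene and an activating duplication in the FLT3 receptor gene, and all groups share that background. The combined group received 1 µM of EZH2 inhibitor (EZH2i) and 1 µM of PRMT5 inhibitor (PRMT5i), the control group received 0.005% DMSO, and RNA was taken after 4 days in every group. The labels call the compounds only EZH2i and PRMT5i. The other 8 libraries, 4 with 1 µM EZH2i alone and 4 with 1 µM PRMT5i alone, show where doubly treated cells differed from singly treated cells. They also entered the filter on low counts and the estimate of spread in the gene tests against DMSO. The model is 1 cell line at 1 dose and 1 time, and the labels do not say whether the 4 replicates of a group were separate cultures, so every p-value measures the spread between these libraries.

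EZH2 is the catalytic subunit of polycomb repressive complex 2 (PRC2), which methylates lysine 27 of histone H3 and keeps many developmental and immune genes silent. PRMT5 places symmetric dimethyl marks on arginines of histones, splicing proteins and signalling proteins, working in a complex with WDR77 and the adaptor CLNS1A. Both enzymes have been studied as drug targets in leukaemias driven by MLL fusions, in which HOXA genes and MEIS1 sustain an immature myeloid state. In a bulk library, fewer cells of a kind and less RNA per cell cannot be told apart.

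The cells carried myeloid leukaemia markers in both groups. Mean levels in CPM (counts per 1000000 counts of a scaled library) with DMSO and with both inhibitors were 81.8 and 110 for the myeloid surface receptor CD33, 50.9 and 63.1 for the transcription factor SPI1, 697 and 836 for FLT3, 56.1 and 68.8 for HOXA9, and 63.4 and 73.5 for MEIS1. The granule enzyme MPO was at 15.7 and 16.5 CPM. ANPEP, which encodes the myeloid surface marker CD13, was close to absent at 0.370 and 0.375 CPM. Library totals ranged from 31142456 to 52885899 expected counts. The DMSO libraries spread more widely than the doubly treated ones: scaling factors from the trimmed mean of M-values (TMM) ran from 0.861 in DMSO replicate 1 to 1.03 in DMSO replicate 2, and the second principal component of the 8 libraries (20.7% of the variance, against 46.4% for the first) placed those same libraries at 43.9 and -63.2. Markers of other lineages had summed levels in the single libraries of 6.8 to 10.4 CPM with DMSO and 19.0 to 26.0 CPM with both inhibitors for 12 B cell genes, 145 to 289 and 206 to 231 CPM for 16 T and NK cell genes, 13.2 to 17.2 and 7.79 to 9.49 CPM for 15 erythroid genes, and 14.4 to 19.2 and 29.9 to 32.6 CPM for 13 epithelial and fibroblast genes. Their part in the results was not tested.

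Treatment with both inhibitors moved genes in both directions in nearly equal numbers. Of 16555 tested genes, 5990 (36.2%) passed an adjusted p of 0.05 in edgeR's quasi-likelihood test against DMSO, 2920 of them higher (17.6%) and 3070 lower (18.5%). With a change of at least 1 on the log2 scale, 925 were higher (5.59%) and 517 lower (3.12%), and with a change of at least 3, 56 were higher and 20 lower. The 4 libraries of one group all lay above the 4 of the other for 2764 higher genes (16.7%) and 2718 lower genes (16.4%). The balance between directions depended on scaling: with library totals only, the median of all genes moved from 0.002 to 0.129 on the log2 scale and the split became 3897 higher and 2021 lower, that is 65.8% of calls higher in place of 48.7%.

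**Figure D1:**
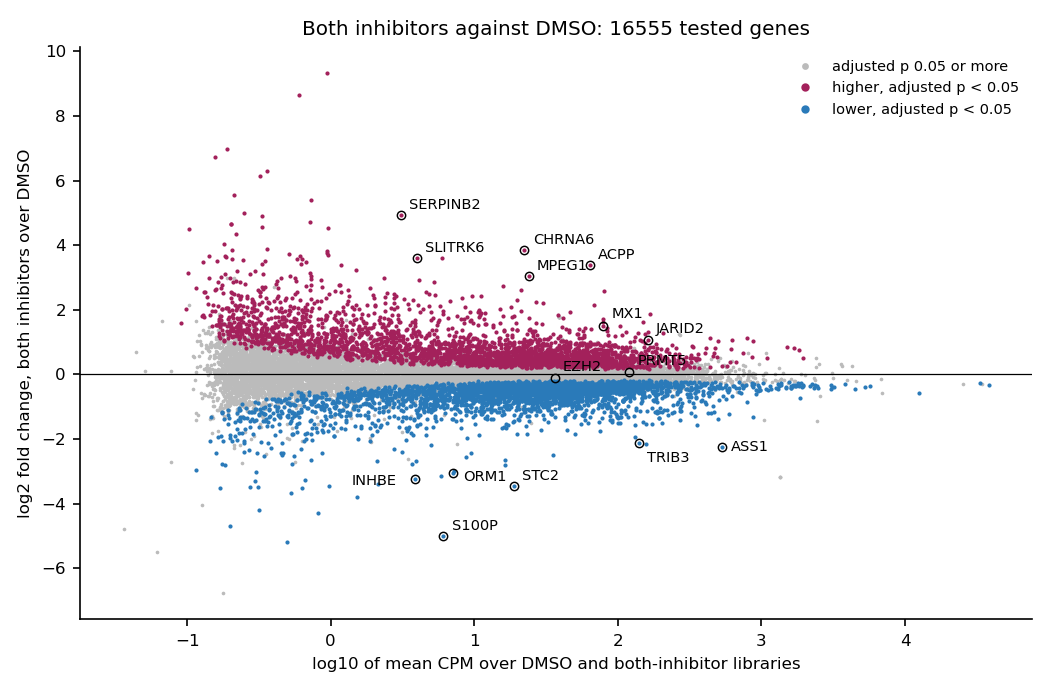
Each point is 1 of 16555 tested genes; the horizontal axis is log10 of its mean CPM over the 8 libraries, and the vertical axis is its log2 fold change with both inhibitors over DMSO. Coloured points passed an adjusted p of 0.05 (2920 higher, 3070 lower), and circles mark named genes, from SERPINB2 at 4.93 to S100P at -5.00, with EZH2 and PRMT5 near 0.

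With all libraries, the transcripts of the 2 drug targets did not pass the test. EZH2 stood at 21.5, 42.5, 43.8 and 42.4 CPM in the DMSO libraries and at 36.1, 35.1, 35 and 33.8 CPM in the doubly treated libraries, a log2 fold change of -0.10 ± 0.16 (SE, adjusted p = 0.64). One low DMSO library, replicate 1, widened that group, and the treated values lay inside the DMSO range. Without that library EZH2 was lower with both inhibitors (log2 change -0.31, adjusted p = 0.00148). PRMT5 stood at 105, 129, 112 and 118 CPM with DMSO and at 129, 127, 119 and 119 CPM with both inhibitors, a log2 fold change of 0.09 ± 0.08 (adjusted p = 0.391). An antisense gene covers 27.1% of its exon length, and reads of such partners may not have been separated. Inhibition of an enzyme does not have to alter its transcript, so these values do not check the treatments.

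Genes with large gains included myeloid genes, a neuronal membrane gene and a metallothionein. They are given here from the 15 of largest fold among the protein-coding genes that passed the test, whose groups did not overlap and whose higher mean reached 5 CPM; larger fitted folds occurred outside these limits. ACPP, which encodes prostatic acid phosphatase, lay at 11.8, 10.0, 11 and 11.8 CPM with DMSO and at 107, 112, 123 and 121 CPM with both inhibitors, a log2 gain of 3.38 ± 0.10 (adjusted p = 2.54e-12). CHRNA6, a nicotinic acetylcholine receptor subunit, lay at 2.02, 1.56, 4.06 and 3.73 CPM with DMSO and at 39.4, 40.0, 43.6 and 44.1 CPM with both inhibitors, a log2 gain of 3.85 ± 0.24 (adjusted p = 2.35e-08). In both genes the groups were far apart, and PRMT5i alone gave means of 129 and 39.5 CPM, which the combination did not exceed by the test (log2 differences from PRMT5i alone of -0.16 and 0.08, adjusted p = 0.457 and 0.926). The macrophage pore-forming protein gene MPEG1 rose by 3.05 ± 0.35, the actin-binding leukocyte protein gene LSP1 by 2.61 ± 0.32, the fibrinogen-like gene FGL2 by 2.58 ± 0.23 and the complement regulator gene CD59 by 2.46 ± 0.23. Others of the 15 were DTX4, a ubiquitin ligase gene of the Notch pathway, at 2.75 ± 0.45, FAM65B at 2.93 ± 0.31, GAPT at 2.48 ± 0.25, THSD7A at 2.44 ± 0.20 and IGLL1, a surrogate light chain gene of early B cells, at 2.42 ± 0.27. SERPINB2, an inhibitor of plasminogen activators, rose from 0.199 ± 0.0743 (SD, n = 4) to 5.95 ± 1.01 CPM (SD, n = 4), a log2 gain of 4.93 ± 0.35, and shares 19.9% of its exon length with SERPINB10, so its counts are uncertain.

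Genes with large losses, taken from the 15 of largest fold under the same limits, included those of secreted and innate immune proteins, and here too larger fitted folds occurred outside the limits. S100P, a calcium-binding protein gene, lay at 15.6, 8.20, 10.9 and 12.4 CPM with DMSO and at 0.366, 0.185, 0.467 and 0.468 CPM with both inhibitors, a log2 change of -5.00 ± 0.25 (adjusted p = 3.66e-09). ORM1, which encodes an acute-phase glycoprotein, lay at 13.1, 10.9, 12.7 and 14 CPM and at 1.17, 1.55, 1.56 and 1.87 CPM, a log2 change of -3.05 ± 0.15 (adjusted p = 3.66e-09). Neither gene had overlapping groups, and their PRMT5i means were 0.287 and 1.34 CPM. NLRP12, an intracellular sensor that dampens inflammatory signalling, changed by -3.13 on the log2 scale, the kinase gene RPS6KA2 by -2.99, the histone demethylase gene KDM7A by -2.80, the phagosomal metal transporter gene SLC11A1 by -2.76 and the transcription factor gene BATF3 by -2.68. LPO, a peroxidase gene, and NDUFA4L2, a hypoxia-responsive mitochondrial gene, each fell by 2.42. ASS1, which makes argininosuccinate in arginine synthesis, was the most abundant of the 15, at 881 ± 71.8 CPM (SD, n = 4) with DMSO and 185 ± 21.9 CPM (SD, n = 4) with both inhibitors, a log2 change of -2.25 ± 0.13 (SE). STC2, INHBE, CHAC1 and CBS, also among the 15, belong to the stress response genes described next, and HIST3H2BB to the histones.

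Every gene of the integrated stress list fell. The integrated stress response acts through the transcription factor ATF4, which turns on genes for amino acid synthesis and uptake and for its own negative feedback, and 28 of 28 listed genes were lower against a background of 18.5% of tested genes, with a median log2 change of -1.38 beside 0.002 over all tested genes. TRIB3, a pseudokinase that feeds back on ATF4, lay at 267, 229, 211 and 203 CPM with DMSO and at 42.4, 41.3, 64.1 and 59.8 CPM with both inhibitors, a log2 change of -2.13 ± 0.15 (adjusted p = 4.91e-08). CTH, the last enzyme of cysteine synthesis from methionine, lay at 26.6, 24.8, 26.6 and 25.4 CPM and at 7.99, 7.16, 9 and 10.6 CPM, a log2 change of -1.57 ± 0.12 (adjusted p = 7.09e-08). The groups were apart in both genes. INHBE, an inhibin beta subunit, changed by -3.23, STC2, a secreted glycoprotein, by -3.45 and CHAC1, which degrades glutathione, by -2.65. The serine synthesis genes PHGDH, PSAT1 and PSPH changed by -1.95, -1.19 and -1.32, the cystine transporter gene SLC7A11 by -1.85 and ATF4 itself by -1.17 on the log2 scale. CBS fell by 2.48, but the annotation holds a second copy of that gene and its counts are uncertain.

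The doubly treated libraries were not uniform in these genes. ASNS, which makes asparagine, lay at 38.1 and 36.7 CPM in replicates 1 and 2 and at 74.1 and 84.4 CPM in replicates 3 and 4, against 245 to 269 CPM with DMSO, and CHAC1 lay at 1.31 and 0.762 CPM and at 7.22 and 8.87 CPM in the same pairs. ATF4 lay at 223 and 227 CPM in the first pair and at 344 and 355 CPM in the second. The labels give no batch that would separate these pairs, the summed level of the 28 genes ran from 1498 to 2340 CPM over the 4 libraries, and all 4 lay below the DMSO range of 4564 to 5181 CPM. With PRMT5i alone the sum was 1479 to 1537 CPM and the list's median was -1.69, and 2 of the 28 genes were higher with both inhibitors than with PRMT5i alone (background 2.91%) and none lower (background 1.24%). Against EZH2i alone, 28 of 28 were lower (background 14.6%). The cytosolic aminoacyl-tRNA synthetases charge tRNAs, and several are ATF4 targets. Of these 20 genes, 11 were lower than with DMSO (background 18.5%) and none higher, with a median of -0.63. SARS changed by -1.10 ± 0.08, WARS by -1.04 ± 0.11, LARS by -0.99 ± 0.08 and EPRS by -0.68 ± 0.08, while QARS and VARS stood at -0.07 and -0.04 (adjusted p = 0.722 and 0.856).

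Promoters of ATF4 targets can hold a C/EBP-ATF composite element, searched here as TGATGNAA on both strands in the RefSeq promoter table (build GRCh38.p14, 250 bases before to 50 after the first listed start of each gene). Of the 28 genes, 21 had a promoter in the table and 4 of these held the letters (19.0%), namely ASNS, ATF3, CHAC1 and SLC3A2, beside 1.70% of the 10107 tested genes with a promoter and 3.67% of all 27305 in the table. The ASNS promoter is shown because it holds such a match, starting 68 bases before the start, with the match in capitals (chr7:97872409-97872658, minus strand). The exons of ASNS overlap another gene model on the same strand over 44.6% of their length, so its counts are uncertain. TRIB3, the member of the list with the smallest p, is shown beside it (chr20:381045-381294, plus strand) and has no match in these 250 bases.
ASNS: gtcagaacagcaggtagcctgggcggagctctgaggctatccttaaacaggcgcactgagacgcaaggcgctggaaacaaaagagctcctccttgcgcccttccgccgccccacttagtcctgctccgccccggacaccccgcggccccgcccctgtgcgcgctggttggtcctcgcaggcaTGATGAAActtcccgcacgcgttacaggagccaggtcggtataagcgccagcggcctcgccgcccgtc
TRIB3: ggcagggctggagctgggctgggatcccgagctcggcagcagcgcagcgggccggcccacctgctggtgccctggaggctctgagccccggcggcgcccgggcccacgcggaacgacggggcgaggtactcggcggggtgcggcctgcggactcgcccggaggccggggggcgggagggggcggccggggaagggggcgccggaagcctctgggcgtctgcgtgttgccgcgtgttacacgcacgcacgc

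**Figure D2:**
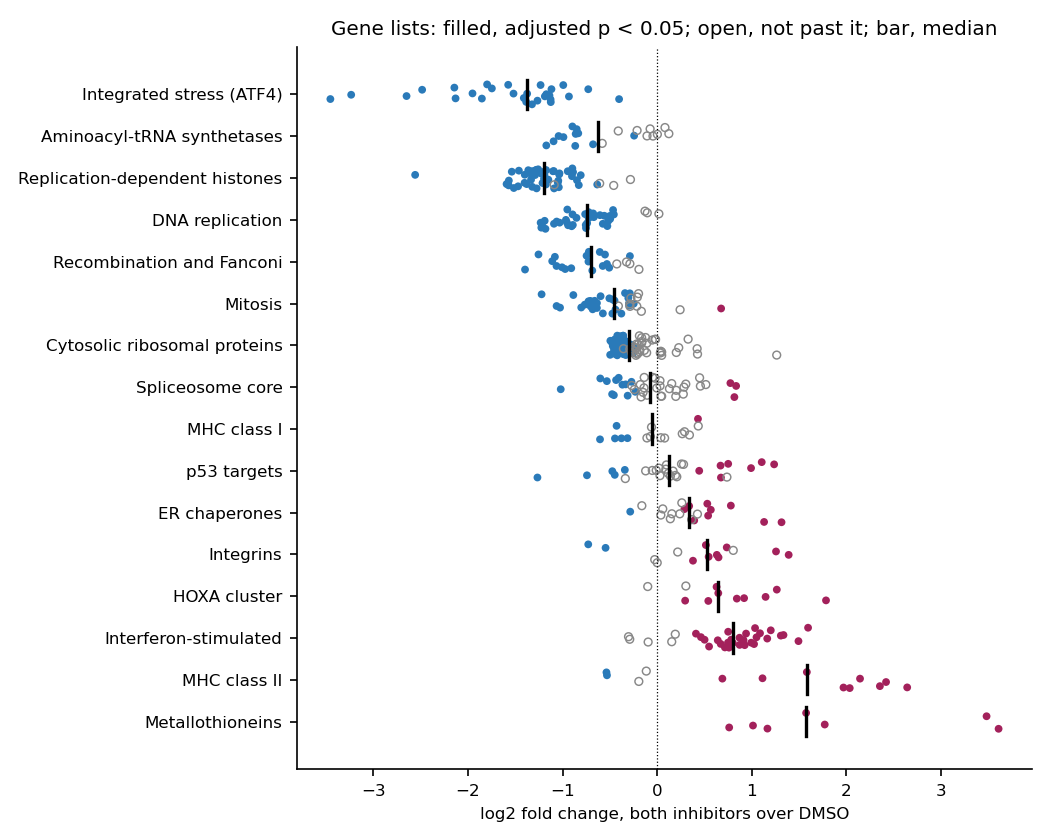
Each point is 1 tested gene of a list, placed by its log2 fold change with both inhibitors over DMSO; filled points passed an adjusted p of 0.05, open points did not, and black bars are list medians. The integrated stress and histone lists lie wholly below 0 (medians -1.38 and -1.19), and the interferon, MHC class II and metallothionein medians lie at 0.80, 1.58 and 1.57.

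Genes of DNA replication were lower in the doubly treated cells, but less so than with PRMT5i alone. Of 38 listed genes, which load and fire replication origins and copy DNA, 35 fell (background 18.5%) and none rose, with a median of -0.75. CDC45, the helicase cofactor that is loaded as origins fire, lay at 47.1, 46.2, 46.7 and 48.7 CPM with DMSO and at 20.7, 20.2, 21.1 and 21.3 CPM with both inhibitors, a log2 change of -1.18 ± 0.08 (adjusted p = 6.06e-08). With PRMT5i alone it lay at 14.8, 13.8, 13 and 11.2 CPM, below all 4 doubly treated libraries (log2 difference 0.66 ± 0.08, adjusted p = 4.88e-04). POLA1, the catalytic subunit of the priming polymerase, changed by -1.19 ± 0.09, ORC1 of the origin recognition complex by -0.95 ± 0.07, and GINS4 of the replicative helicase by -1.22 ± 0.08, the last with an antisense gene model over 21.2% of its exon length. POLE and DUT, which encode the leading-strand polymerase and a nucleotide pool enzyme, did not pass at -0.10 and -0.13 (adjusted p = 0.7 and 0.499). In all, 20 of the 38 genes were higher with both inhibitors than with PRMT5i alone (background 2.91%) and none lower. Their summed level was 3961 to 4316 CPM with DMSO, 2448 to 2578 CPM with both inhibitors, 1780 to 1977 CPM with PRMT5i and 4418 to 4748 CPM with EZH2i.

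Mitotic genes followed the same order. Of 38 genes of the spindle, kinetochore, condensin and mitotic kinases, 28 fell (background 18.5%) and 1 rose (background 17.6%), with a median of -0.46. AURKB, the kinase of the chromosomal passenger complex, lay at 29.7, 34.7, 25.8 and 27.9 CPM with DMSO, at 13.4, 11.9, 12 and 13.2 CPM with both inhibitors and at 8.82, 8.35, 7.16 and 5.97 CPM with PRMT5i alone. Each step was larger than the spread: -1.22 ± 0.12 against DMSO (adjusted p = 1.20e-06) and 0.74 ± 0.12 against PRMT5i alone (adjusted p = 0.00281), with no overlap in either. TOP2A, which untangles DNA, changed by -0.89 ± 0.10 and CDC25C, the phosphatase that triggers entry into mitosis, by -1.06 ± 0.13. NCAPG, a condensin subunit, changed by -1.03 ± 0.11, with an antisense overlap of 33.1%. SMC4, a condensin ATPase whose exons overlap an antisense gene over 18.5% of their length, was the gene that rose, from 286, 324, 308 and 319 to 463, 559, 455 and 500 CPM (log2 change 0.68 ± 0.11, adjusted p = 1.18e-04). The motor KIF11 and the spindle assembly factor TPX2 stood at -0.20 and -0.21 (adjusted p = 0.219 and 0.379), and TPX2 passed without DMSO replicate 1 (-0.41, adjusted p = 0.0122). Against PRMT5i alone, 27 of the 38 genes were higher with both inhibitors (background 2.91%) and none lower (background 1.24%). The number of mitotic genes below DMSO ranged from 18 with scaling by library totals to 32 over the alternatives tried.

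Histone and repair genes were lower too, and the counts of this paragraph stand beside 18.5% of all tested genes lower and 17.6% higher. Of 54 tested replication-dependent histone genes, whose messages are made in S phase, 50 fell and none rose, with a median of -1.19. Their share of all counts was 0.879 ± 0.0972% (SD, n = 4) with DMSO, 0.417 ± 0.0381% (SD, n = 4) with both inhibitors and 0.289% with PRMT5i, and the exact two-sided permutation test of both inhibitors against DMSO gave the smallest p that 70 splits allow (0.0286, adjusted over 4 gene classes 0.0381). Single histone genes are near-identical copies, so their separate counts are uncertain. Of 22 Fanconi and homologous recombination genes, 18 fell and none rose (median -0.70). FANCD2, which is loaded at stalled forks, lay at 81.0, 71.4, 60.4 and 71.0 CPM with DMSO and at 28.6, 32.2, 27.5 and 30.6 CPM with both inhibitors (log2 change -1.25 ± 0.10, adjusted p = 9.68e-08). FANCE and FANCG of the core complex changed by -1.40 and -1.08 and FANCI, the partner of FANCD2, by -0.91, while BRCA2 stood at -0.32 (adjusted p = 0.154; -0.47 and 0.021 without DMSO replicate 2). Of 16 E2F and RB family genes, 6 fell (5 to 9 over the alternatives tried), 1 rose and 9 did not pass. E2F1 stood at -1.10 ± 0.10, E2F2 at -1.05 ± 0.11 and the DREAM complex member LIN9 at -1.02 ± 0.18, while RB1 stood at -0.04 (adjusted p = 0.867). CDKN1A, which encodes the cell cycle inhibitor p21, lay at 224 ± 5.14 CPM (SD) with DMSO and 228 ± 9.51 CPM with both inhibitors (log2 change 0.03 ± 0.07, adjusted p = 0.769).

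Promoters of cell cycle genes carry known motifs: mitotic genes the cell cycle homology region, searched as TTTGAA, and replication genes E2F sites, searched as TTTNGCGC, each on both strands in the same windows. TTTGAA was in 23 of 32 mitotic promoters (71.9%), beside 10.2% of tested genes with a promoter. TTTNGCGC was in 14 of 33 replication promoters (42.4%), beside 2.95%. The promoters of NCAPG (chr4:17810729-17810978, plus strand) and POLA1 (chrX:24693668-24693917, plus strand) are printed as the members with the smallest p that hold the motif, in capitals, and that of AURKB (chr17:8210226-8210475, minus strand) as the mitotic gene with the smallest p, with no match in these letters. NCAPG matches at 35 bases and POLA1 at 137 bases before the start.
NCAPG: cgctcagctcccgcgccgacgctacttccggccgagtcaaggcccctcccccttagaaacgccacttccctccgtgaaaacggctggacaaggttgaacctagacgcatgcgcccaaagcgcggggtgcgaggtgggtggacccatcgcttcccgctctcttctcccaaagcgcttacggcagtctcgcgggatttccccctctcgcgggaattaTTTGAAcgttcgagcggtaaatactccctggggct
POLA1: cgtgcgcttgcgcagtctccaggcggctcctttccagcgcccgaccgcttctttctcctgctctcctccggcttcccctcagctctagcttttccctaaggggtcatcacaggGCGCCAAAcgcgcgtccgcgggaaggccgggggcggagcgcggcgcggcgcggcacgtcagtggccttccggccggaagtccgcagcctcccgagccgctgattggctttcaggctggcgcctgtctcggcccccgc
AURKB: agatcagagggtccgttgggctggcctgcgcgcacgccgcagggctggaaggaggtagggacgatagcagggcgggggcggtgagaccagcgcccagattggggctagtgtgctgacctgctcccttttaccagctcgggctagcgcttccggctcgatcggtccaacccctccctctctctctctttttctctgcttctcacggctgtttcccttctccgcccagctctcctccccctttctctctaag

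Interferon-stimulated genes rose, although each inhibitor alone gave a different picture. These genes encode antiviral effectors that type I interferon induces, and 28 of 33 rose with both inhibitors (background 17.6%) and none fell, with a median of 0.80; without DMSO replicate 2, 1 fell. MX1, a dynamin-like antiviral GTPase, lay at 37.8, 35.2, 45.9 and 45.7 CPM with DMSO and at 127, 133, 111 and 93.1 CPM with both inhibitors, a log2 gain of 1.49 ± 0.16 (adjusted p = 3.18e-06). IFI6, a mitochondrial antiviral protein gene, lay at 39.3, 41.4, 44.4 and 42.7 CPM and at 83.8, 79.3, 86.4 and 72.4 CPM, a log2 gain of 0.94 ± 0.10 (adjusted p = 1.87e-06). In both genes all 4 doubly treated libraries lay above every other library of the study, with means for EZH2i of 20.4 and 23.2 CPM and for PRMT5i of 70.1 and 55.1 CPM. EPSTI1 rose by 1.34 ± 0.14 and MX2 by 1.03 ± 0.11. The transcription factor gene IRF9 stood at 0.50 ± 0.11, but 48.4% of its exon length is shared with another gene, and the transcription factor gene STAT2 stood at -0.10 (adjusted p = 0.315). XAF1, with an antisense overlap of 38.3%, stood at 0.19 (adjusted p = 0.0869), and the chemokine gene CXCL10 at -0.30 (adjusted p = 0.326), the latter past the test without DMSO replicate 2 (-0.53, adjusted p = 0.0116).

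Against the single inhibitors the gain was as broad. With EZH2i alone 21 of the 33 genes fell and none rose against DMSO (median -0.59, backgrounds 3.49% and 4.11%), and with PRMT5i alone 11 rose and 6 fell (median 0.25, backgrounds 17.1% and 18.3%); these comparisons share the DMSO libraries with the main one. With both inhibitors, 25 of 33 were higher than with PRMT5i alone (background 2.91%) and 32 of 33 higher than with EZH2i alone (background 13.4%), and none was lower in either. The summed level of the 33 genes was 1083 to 1362 CPM in DMSO libraries, 833 to 884 CPM under EZH2i, 1208 to 1474 CPM under PRMT5i and 1786 to 2217 CPM under both inhibitors, so the doubly treated libraries did not overlap any other group. An interferon-stimulated response element, searched on both strands as GAAA, any 2 bases and GAAA, was in 16 of 25 promoters of the list (64.0%), beside 3.15% of tested genes with a promoter. The 250 bases before the IFI6 start are shown because they hold 3 matches, beginning 156, 115 and 93 bases before the start and printed in capitals (chr1:27672193-27672442, minus strand).
IFI6: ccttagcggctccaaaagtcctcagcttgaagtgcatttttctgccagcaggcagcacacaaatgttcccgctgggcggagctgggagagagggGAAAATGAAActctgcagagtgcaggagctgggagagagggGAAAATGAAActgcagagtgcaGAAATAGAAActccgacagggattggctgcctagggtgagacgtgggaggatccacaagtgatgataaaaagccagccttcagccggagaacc

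**Figure D3:**
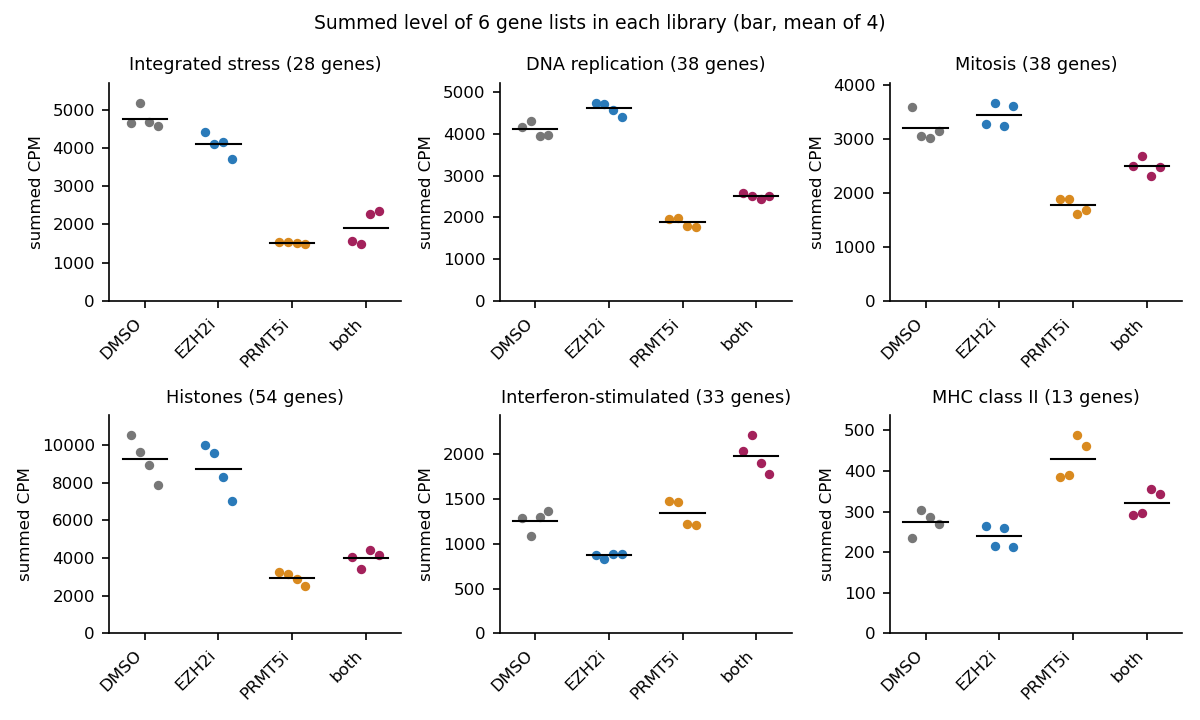
The vertical axis is the summed CPM of the tested genes of a list in each library; points are the 4 replicates of DMSO, EZH2i, PRMT5i and both inhibitors, and bars are means. With both inhibitors the replication, mitosis and histone sums lie between the PRMT5i and DMSO values, and the interferon sums of 1786 to 2217 CPM lie above all other libraries.

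Most of the MHC class II genes, which present antigen to helper T cells, rose from low levels, and some stayed below their level with PRMT5i alone. Of 13 tested genes 9 rose and 2 fell, with a median of 1.58 beside 2.32 for PRMT5i alone. Of all tested genes, 17.6% were higher and 18.5% lower. A gene high in 1 group can pass the filter on low counts, and such a gene can hardly be counted except as higher. HLA-DPA1 and HLA-DPB1, among the 9, had DMSO means of only 0.0818 and 0.0385 CPM. HLA-DRA lay at 3.47, 2.18, 2.34 and 2.78 CPM with DMSO, at 12.2, 12.4, 15.1 and 15.4 CPM with both inhibitors, and at 28.3, 24.4, 29.3 and 31.7 CPM with PRMT5i alone. The 3 groups were apart: the gain over DMSO was 2.35 ± 0.15 (adjusted p = 3.04e-08) and the difference from PRMT5i was -1.04 ± 0.14 (adjusted p = 6.89e-04). CIITA, the transactivator of the class II genes, lay at 0.749, 1.65, 1.6 and 1.07 CPM with DMSO and at 3.99, 4.02, 3.95 and 3.20 CPM with both inhibitors (log2 gain 1.58 ± 0.21, adjusted p = 2.64e-05), and differed from PRMT5i alone by -0.73 ± 0.20 (adjusted p = 0.0448). CD74, the invariant chain, rose from a mean of 102 CPM to 165 CPM, beside 236 CPM with PRMT5i, but its adjusted p of 0.0451 went above 0.05 without any 1 of DMSO replicates 1 and 4 and doubly treated replicates 3 and 4 (0.0579 to 0.117). In all, 4 of the 13 genes were lower than with PRMT5i alone (background 1.24%) and none higher. Of the constitutive promoter factors, RFX5 and RFXAP stood at -0.19 and -0.12 (adjusted p = 0.118 and 0.628), and RFXANK fell by 0.54 on the log2 scale. HLA genes are polymorphic relatives, and reads can be shared among them. Of 15 MHC class I genes 1 rose (2 without any 1 of DMSO replicates 1, 2 and 3) and 5 fell, beside 17.6% of all tested genes higher and 18.5% lower, among them HLA-E with a log2 change of -0.38 ± 0.08, while B2M, their common light chain, stood at -0.07 (adjusted p = 0.747).

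**Figure D4:**
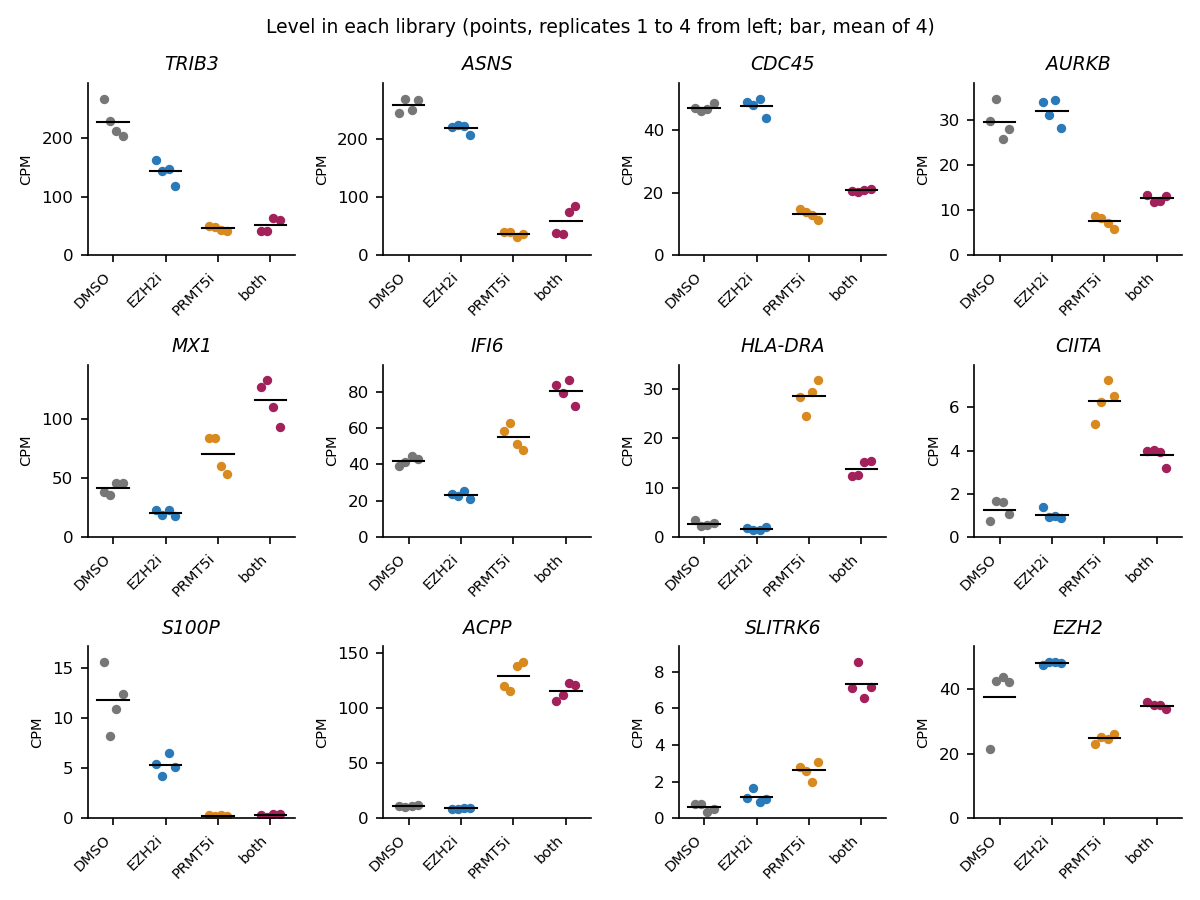
Each panel gives the CPM of 1 gene in the 16 libraries, with replicates 1 to 4 from left to right within DMSO, EZH2i, PRMT5i and both inhibitors, and bars at the means; axes start at 0. HLA-DRA and CIITA peak with PRMT5i alone, MX1, IFI6 and SLITRK6 with both inhibitors, and TRIB3, CDC45, AURKB and S100P are low in both groups that received PRMT5i.

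Monocyte genes moved in both directions. Of 19 tested monocyte markers 10 rose and 3 fell (median 0.44), beside 17.6% of all tested genes higher and 18.5% lower. ITGAM, the CD11b integrin chain, lay at 23.5, 26.1, 26.5 and 25 CPM with DMSO and at 59.8, 61.2, 71.5 and 72.1 CPM with both inhibitors (log2 gain 1.39 ± 0.10, adjusted p = 6.06e-08), and the macrophage growth factor receptor gene CSF1R rose from 14.8 to 29.6 CPM. The scavenger receptor gene CD36 rose by 1.54 ± 0.26, with 15.4 and 15.3 CPM in doubly treated replicates 1 and 2 and 25.1 and 25.4 CPM in replicates 3 and 4, and MPEG1 was split the same way, at 31.1 and 31 against 54.4 and 54.1 CPM. CD14, the endotoxin co-receptor that defines classical monocytes, was already near 0 with DMSO and fell from a mean of 0.363 to 0.0841 CPM. VCAN, a matrix proteoglycan of monocytes, changed by -1.45 ± 0.24. VCAN was also below its level with PRMT5i alone (log2 difference -1.28 ± 0.24, adjusted p = 0.00674). LYZ and CCR2 stood at 0.18 and -0.15 (adjusted p = 0.462 and 0.4), LYZ with an antisense overlap of 34%. Of 13 granulocyte markers 2 rose, the protease gene PRTN3 by 0.75 ± 0.18 and RNASE3 by 0.78 ± 0.15, and none fell (1 without DMSO replicate 1).

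Other surface and signalling lists were split, and their counts stand beside 17.6% of all tested genes higher and 18.5% lower. Of 14 integrin genes 8 rose and 2 fell, with ITGA5, the fibronectin receptor chain, at 0.65 ± 0.09 and ITGAE at -0.73 ± 0.11, while the shared chain ITGB2 had the same mean of 366 CPM in both groups. Of 22 chemokine and receptor genes 9 rose and 3 fell (5 without DMSO replicate 2), and the chemokine gene CCL5 fell from 277 ± 53.2 to 108 ± 9.98 CPM (SD, n = 4). Of 19 innate receptor genes 6 rose and 6 fell, among them TLR4 at 0.85 ± 0.13 and TLR1 at 0.98 ± 0.17. Of 10 Fc receptor genes 2 rose and 2 fell (4 without DMSO replicate 3), among them FCER2, the low-affinity IgE receptor, at -1.22 ± 0.16. Lysosomal genes had 7 of 34 higher, a share near that of all tested genes, and 1 lower (2 without DMSO replicate 1), with CTSZ at 0.94 ± 0.17 and GUSB at 0.82 ± 0.16. The number of lysosomal genes higher was 11 without DMSO replicate 2 and 12 with a GC correction.

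Polycomb genes moved in both directions. The accessory subunit gene JARID2, which helps to recruit PRC2, lay at 84.8, 116, 108 and 105 CPM with DMSO and at 220, 222, 216 and 217 CPM with both inhibitors (log2 gain 1.08 ± 0.08, adjusted p = 9.28e-08), with means of 133 CPM for EZH2i and 192 CPM for PRMT5i. Of 12 PRC2 genes 2 rose and 4 fell, beside 17.6% and 18.5% of all tested genes: AEBP2 rose by 0.54 ± 0.14, RBBP7 and EZH1 stood at -0.39 and -0.26, both past the test, and the number that fell was 2 without any 1 of DMSO replicates 2, 3 and 4 or doubly treated replicates 2 and 4. SUZ12 stood at -0.17 (adjusted p = 0.381). Of 21 PRC1 genes 2 rose and 5 fell (3 without doubly treated replicate 2), with CBX2, a reader of the PRC2 mark, at -1.06 ± 0.12. Most developmental regulators known as polycomb targets stayed too low to test: 23 of 100 listed genes passed the filter on low counts, which a gene high in 1 group can pass, and of these 8 rose (5 without DMSO replicate 4) and 5 fell. The homeobox gene IRX3 lay at 22.5, 33.4, 26.6 and 22.6 CPM with DMSO and at 57.1, 56.3, 54.6 and 48.5 CPM with both inhibitors (log2 gain 1.04 ± 0.12, adjusted p = 8.40e-06), the neural factor gene POU4F1, with an antisense overlap of 27.7%, fell from 0.789 to 0.149 CPM, and WT1 stood at -0.05 (adjusted p = 0.757). Of the arginine methyltransferases and PRMT5 partners 1 of 13 rose (none without doubly treated replicate 3) and 5 fell, among them PRMT1, the main enzyme for asymmetric marks, at -0.61 ± 0.09. The PRMT5 partners CLNS1A and WDR77 stood at -0.33 and -0.32, WDR77 with 24% of its exon length shared with another gene. CLNS1A no longer passed without any 1 of DMSO replicate 1 and doubly treated replicates 1 and 3 (adjusted p = 0.0593 to 0.0821), and the number of these genes that fell was 2 or 3 without any 1 of DMSO replicate 4 and doubly treated replicates 1, 3 and 4.

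HOXA genes rose in these MLL-rearranged cells. Of 11 tested HOXA genes 9 rose (background 17.6%) and none fell (background 18.5%), with a median of 0.65. PRMT5i alone raised 7 of the 11 (background 17.1%), and none of the 11 differed by the test between both inhibitors and PRMT5i alone. HOXA5 rose from 3.08, 3.18, 3.34 and 2.66 CPM to 7.74, 7.89, 6.53 and 7.25 CPM (log2 gain 1.26 ± 0.11, adjusted p = 2.69e-07). HOXA9, the best known of them in MLL leukaemia, rose by 0.30, its partner MEIS1 stood at 0.21 with an adjusted p of 0.0425 that went above 0.05 without any 1 of 6 libraries (DMSO replicates 2, 3 and 4 and doubly treated replicates 2, 3 and 4, 0.0712 to 0.118), while MYB and CDK6 stood at 0.03 and 0.11 (adjusted p = 0.847 and 0.558). Several HOXA genes overlap other gene models, HOXA6 over 39.3% and HOXA4 over 31% of their exon length, and this list and that of the metallothioneins were added after the values were seen. Of 22 myeloid transcription factor genes 5 rose (2 or 3 without any 1 of DMSO replicate 4 and doubly treated replicates 1, 3 and 4) and 5 fell, shares near those of all tested genes (17.6% and 18.5%), with IKZF1 at 0.55 ± 0.07 and CEBPB at -1.13 ± 0.14. MYC stood at -0.24 (adjusted p = 0.294; -0.44 and 0.00255 without DMSO replicate 1). All 7 tested metallothionein genes, which bind zinc and copper, rose (background 17.6%), from MT1E at 0.76 to MT1H at 3.61 ± 0.28. PRMT5i alone also raised all 7 (background 17.1%), and 1 of the 7 was higher with both inhibitors than with PRMT5i alone (background 2.91%). MT1H lay at 1.22, 0.717, 0.713 and 0.967 CPM with DMSO and at 9.69, 8.08, 13.6 and 12.9 CPM with both inhibitors, and these genes are near-identical copies.

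Cell death genes gave no single direction. BCL2L11, which encodes the killer protein BIM, lay at 13.3, 26.6, 22.7 and 19.3 CPM with DMSO and at 42.4, 41.5, 38.5 and 38.4 CPM with both inhibitors (log2 gain 0.97 ± 0.15, adjusted p = 1.11e-04). The survival gene MCL1 rose as well, from 240 ± 22.5 to 352 ± 13.2 CPM (SD, n = 4), while the killer gene BBC3, which encodes PUMA, fell by 0.74 and BCL2 itself by 0.35. Of 14 BCL2 family genes 3 rose (background 17.6%) and 5 fell (background 18.5%). The number that fell was 3 without any 1 of DMSO replicate 4 and doubly treated replicates 2, 3 and 4. Of 28 p53 targets 7 rose (11 with a GC correction) and 5 fell, beside 17.6% of all tested genes higher and 18.5% lower: ZMAT3 rose by 1.24 ± 0.14, BTG2 by 1.11 ± 0.13 and TP53INP1 by 0.99 ± 0.12, and MDM2 stood at 0.28 (adjusted p = 0.1). Immediate early genes had 2 of 19 higher (0 or 1 without any 1 of the other libraries than DMSO replicate 3) and 8 lower. ATF3 stood at -1.23 and IER3, which has an antisense overlap of 26.5%, at -1.21. MAPK feedback genes had 4 of 13 higher and 5 lower. The counts of both lists also stand beside 17.6% of all tested genes higher and 18.5% lower. CCND1, which encodes cyclin D1, lay at 6.60, 9.23, 7.29 and 7.08 CPM with DMSO, 14, 13.8, 10.9 and 10.1 CPM with both inhibitors and a mean of 5.68 CPM with PRMT5i alone (log2 difference from PRMT5i 1.11 ± 0.14, adjusted p = 5.03e-04).

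Of 19 chaperone genes of the endoplasmic reticulum, which fold secreted proteins, 9 rose, beside 17.6% of all tested genes, and 1 fell (median 0.34), and 5 rose without DMSO replicate 4 or doubly treated replicate 1. HSPA5, the chaperone BiP, lay at 48.1, 153, 92.2 and 77.1 CPM with DMSO and at 264, 280, 189 and 188 CPM with both inhibitors (log2 gain 1.31 ± 0.26, adjusted p = 7.69e-04), and CALR, calreticulin, rose by 1.13 ± 0.12 and the chaperone gene HSP90B1 by 0.78 ± 0.11. All treated values lay above the DMSO range in HSPA5 in spite of the wide control group. XBP1, a transcription factor of the same compartment's stress response, stood at 0.04 (adjusted p = 0.737). Of 21 glycolysis genes 1 rose, the glucose transporter gene SLC2A1 by 0.91 ± 0.11, and 6 fell, among them PFKL at -0.74 ± 0.11. Of 22 sterol synthesis genes 4 fell, a share near the 18.5% of all tested genes that were lower, and none rose (3 rose without DMSO replicate 2). Of 40 spliceosome genes 3 rose (12 without DMSO replicate 2) and 12 fell, with LSM4 at -1.02 ± 0.09.

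Cytosolic ribosomal protein genes were lower and mitochondrially encoded protein genes higher. Of 76 cytosolic ribosomal protein genes 43 fell (background 18.5%) and none rose (3 rose without DMSO replicate 2), with a median of -0.30, and the number that fell ranged from 16 to 56 over the alternatives, with 26 and 24 without doubly treated replicate 1 or 2. Their share of all counts was 11.6 ± 0.384% with DMSO and 10.7 ± 0.561% with both inhibitors (SD, n = 4; exact two-sided permutation p = 0.0286, adjusted 0.0381). The groups nearly touched, with DMSO replicate 2 at 11.205% and doubly treated replicate 4 at 11.201%. Doubly treated replicates 1 and 2 lay at 10.1% and 10.2%, and replicate 3 at 11.1%. The summed scaled levels overlapped, at 108783 to 139640 CPM with DMSO and 95256 to 108983 CPM with both inhibitors. Of 13 protein genes of the mitochondrial genome 11 rose (background 17.6%; median 0.88; 6 without DMSO replicate 4 and 7 without doubly treated replicate 2), and their share was 0.233 ± 0.123% and 0.435 ± 0.0352% (SD, n = 4; exact permutation p = 0.0286, adjusted 0.0381). The DMSO libraries ran from 0.0884% to 0.385%. The mean share was 0.377% with EZH2i alone and 0.388% with PRMT5i alone. None of the 13 genes passed between both inhibitors and either single inhibitor. MT-ND1, a subunit of respiratory complex I, rose by 0.97 ± 0.22 and MT-ATP6 of ATP synthase by 1.12 ± 0.32, with DMSO replicate 2 inside the treated range in the latter.

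A small set of genes passed against DMSO and against each single inhibitor in the same direction: 91 were higher (0.55% of tested genes) and 15 lower (0.0906%). Of these, 71 are protein-coding and reached 5 CPM or more in whichever group was higher, 60 up and 11 down, and 23 of the 60 are on the interferon list. The 4 with the largest fold were SERPINB2, MT1H, SLITRK6 and ECI2. SLITRK6, a neuronal membrane protein gene, lay at 0.804, 0.811, 0.379 and 0.493 CPM with DMSO and at 7.11, 8.54, 6.59 and 7.16 CPM with both inhibitors, with means of 1.19 CPM for EZH2i and 2.62 CPM for PRMT5i. The gain over DMSO was 3.59 ± 0.24 (adjusted p = 3.04e-08) and that over PRMT5i alone 1.49 ± 0.20 (adjusted p = 7.05e-04). ECI2, a fatty acid oxidation enzyme gene, had a mean of 1.28 CPM in DMSO libraries, 5.90 CPM under EZH2i, 1.36 CPM under PRMT5i and 9.20 CPM under both, and shares 27.1% of its exon length with an antisense gene. Other genes of the set had mean levels in the order DMSO, EZH2i, PRMT5i and both of 5.93, 11, 14.6 and 24.2 CPM for FILIP1L, 8.66, 13.9, 16.9 and 33.7 CPM for the serpin gene SERPINI1, 4.8, 9.61, 9.54 and 16.6 CPM for the receptor subunit gene GABRA4, and 122, 138, 168 and 294 CPM for the histone chaperone gene ASF1A. Among the 11 lower genes, the early response gene KLF10 had means of 30.9, 25.1, 29.3 and 19.7 CPM, MAN1C1, a Golgi mannosidase gene, 5.88, 3.70, 2.57 and 1.62 CPM, and the ligase gene TRIM7 5.40, 2.76, 2.16 and 1.31 CPM.

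Change was also ordered by transcript length. Of the tested genes split into 5 classes by the length of their longest annotated transcript, the shortest (75 to 1601 bases) had a median log2 change of -0.12, with 8.58% of genes higher and 20% lower, and the longest (5396 to 205012 bases) a median of 0.13, with 27.8% higher and 12.8% lower. The order of the medians was the same without DMSO replicate 1, without DMSO replicate 2 and with a correction for GC content. Of 90 tested small nucleolar RNA genes, which guide modification of ribosomal RNA, none rose (background 17.6%) and 37.8% fell (background 18.5%). The share of all counts on small nucleolar RNA genes was 1.12 ± 0.348% with DMSO and 0.765 ± 0.0799% with both inhibitors (SD, n = 4, exact two-sided permutation p = 0.143). The part of transcript length in the results above was not tested.

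**Figure D5:**
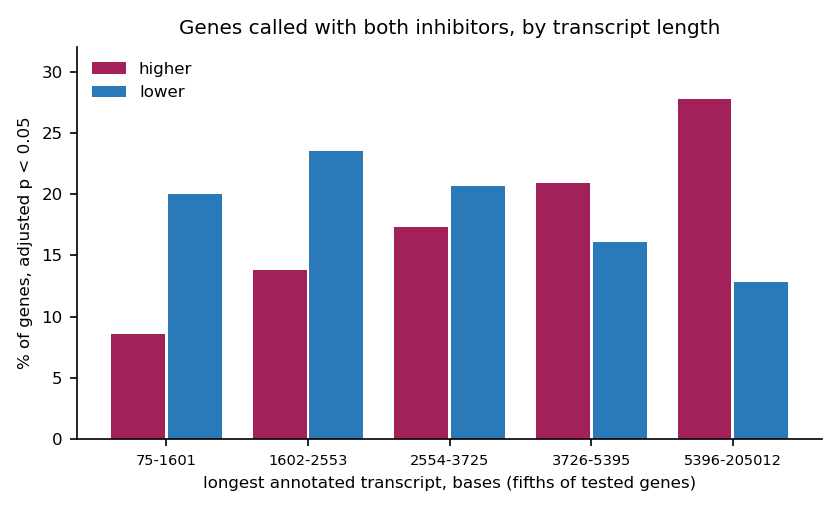
The tested genes are split into 5 classes of nearly equal size by transcript length, from shortest to longest, and the bars give the percent of genes in each class called higher or lower with both inhibitors than with DMSO. The share called higher goes from 8.58% to 27.8%, and the share called lower is smallest, 12.8%, among the longest.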

How the data were processed

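RNA-seq was made from 16 MOLM-13 libraries, 4 in each of 4 groups. The authors deposited expected counts per gene from RSEM, with alignment by STAR 2.5.3 to GRCh38.p7, per the submitters' processing notes; the RSEM version and the strand setting are not given in the sources used here. Of all values, 11.99% were not whole, and the expected counts were rounded. Genes kept by filterByExpr (16555) were scaled by TMM and tested with edgeR 4.0.16 (R 4.3.3; glmQLFit and glmQLFTest) in 1 model with 4 group means over all 16 libraries, with Benjamini-Hochberg adjustment over all tested genes and a threshold of 0.05. CPM values use TMM-scaled library sizes. Errors of fold changes are standard errors on the log2 scale. Biotypes, transcript lengths and exon overlaps come from GENCODE release 29. The procedure was tested on simulated data with the same spread in every group. The real DMSO libraries spread more widely than the doubly treated ones, and the simulation does not cover that difference.

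The members and the 41 gene lists were chosen with earlier results of these data known, and 2 lists, metallothioneins and HOXA genes, were added after the values were seen. Genes were named by rule: EZH2 and PRMT5; the 15 higher and 15 lower protein-coding genes of largest fold past the threshold whose groups did not overlap and whose larger mean reached 5 CPM; from each list up to 4 members of smallest p and up to 2 abundant members that did not pass; and the 4 protein-coding genes of largest fold past both single inhibitors. Some genes that the rule names are not reported here. The identity markers were fixed as a list of their own. Named beyond the rule, after their values were seen, were ATF4, PHGDH, PSAT1, PSPH, SLC7A11, ASNS, SLC3A2, SMC4, IRF9, CXCL10, CD74, RFXANK, CSF1R, CD36, MT1E, BCL2, SERPINB10, FILIP1L, SERPINI1, GABRA4, ASF1A, MAN1C1 and TRIM7, and the promoters of IFI6, ASNS, NCAPG and POLA1. HLA-DPA1 and HLA-DPB1 were also named after their values were seen. Alternatives were other scalings, tests, filters and sample sets, a GC correction and a replicate block.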

Additional observations from a re-analysis of the deposited data

Results flagged for a closer look

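In 14 of 328 groups of 4 libraries examined (1 gene level in 1 group each), a single value stood far from the other 3. Chance flags about 1 in 20 groups if the groups are independent. Levels of different genes in the same libraries are not, so the number cannot show whether the flags are chance. Every flag among the DMSO libraries fell in replicate 1 or 2. Among DMSO libraries, replicate 1 was the lowest for EZH2 (21.5 CPM, the others 42.4 to 43.8), WARS (316 CPM, the others 375 to 380), XAF1 (88.5 CPM, the others 102 to 104) and HOXA4 (0.0554 CPM, the others 0.245 to 0.281), and the highest for ECI2 (1.52 CPM, the others 1.16 to 1.22). DMSO replicate 2 was the highest for CALR (612 CPM, the others 444 to 468), MT-ND1 (27.5 CPM, the others 12.6 to 14), MT-ATP6 (47.8 CPM, the others 15.1 to 17.4) and ANPEP (0.811 CPM, the others 0.197 to 0.250). It was the lowest for MDM2 (242 CPM, the others 354 to 370) and GABRA4 (3.80 CPM, the others 5.03 to 5.21). Among doubly treated libraries, replicate 2 was the highest for RNASE3 (17.4 CPM, the others 14.6 to 15.1), and replicate 4 was the highest for HIST3H2BB (3.42 CPM, the others 2.16 to 2.31) and the lowest for CIITA (3.20 CPM, the others 3.95 to 4.02).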

How the results depend on the processing

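Against DMSO, leaving out 1 library in turn gave 2450 to 3582 higher and 2606 to 3498 lower genes, and scaling by library totals gave 3897 and 2021. Fitting only the 2 groups compared gave 2253 higher and 2542 lower genes. A GC correction gave 3666 and 3934, and a GC correction with the replicate block gave 3811 and 3993. The count against PRMT5i alone (688) was less stable: it was 1064 by DESeq2's Wald test, 2320 by limma voom with group weights, 2072 with only the 2 groups fitted, 1278 with a GC correction, 1531 with a GC correction and the replicate block, and 259 to 533 with 1 library left out, lowest without PRMT5i replicate 3. The cause was not tested. The share of counts on mitochondrially encoded protein genes differed by 0.154 to 0.253 percentage points with 1 library left out, lowest without DMSO replicate 1 and highest without DMSO replicate 2, and its exact permutation p was 0.0571 without any 1 doubly treated library. Deviations of same-numbered doubly treated and DMSO libraries had correlations from -0.0499 to 0.0247. Pairing with the single-inhibitor libraries was not examined in this way. Against DMSO the replicate block gave 3038 higher and 3092 lower genes. Against PRMT5i alone that block gave 857 genes, and a term for replicates 1 and 2 against 3 and 4 gave 908, in place of 688. Leaving out DMSO replicates 1 and 2 together, chosen after seeing the data, gave 2768 higher and 3200 lower genes against DMSO.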
